A study of Mus musculus with 8 samples.

Results

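The TRIM (tripartite motif) genes were examined in RNA-seq libraries of mouse dendritic cells, the antigen-presenting cells that carry antigen from tissues to T cells. They were taken as all rows of the count table whose symbol consists of Trim, a number and at most 1 letter from a to d. This gave 65 of the 23420 features, and 41 of the 65 passed the filter on low counts, as did 12442 features in all. The 4 groups were Gata1 knock-out (KO) cells treated with LPS, KO cells at steady state, wild-type (WT) cells treated with LPS, and WT cells at steady state, with 2 libraries each. LPS is the bacterial lipopolysaccharide sensed by Toll-like receptor 4 (TLR4), and Gata1 encodes a zinc finger transcription factor best known from red cell, megakaryocyte and mast cell development. The labels name neither the mouse strain and age, nor the promoter or Cre line behind the deletion, nor the dose and duration of LPS.

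TRIM proteins carry, in order, a RING domain, 1 or more B-box zinc fingers and a coiled coil, followed by a C-terminal region that differs between subfamilies and binds the target. The RING domain recruits a ubiquitin-loaded E2 enzyme, so most members act as E3 ubiquitin ligases. Many TRIM genes are induced by type I interferon, which dendritic cells make after TLR4 signals through TRIF, and their products act on RNA sensors, signalling adaptors and viral proteins. Other members serve transcription, the cytoskeleton, muscle or development. The name ubiquitin ligases does not cover every row chosen here: Trim14, Trim16, Trim29, Trim44 and Trim66 encode proteins without a RING domain, and 4 of these 5 were among the 41 tested genes.

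Total counts ran from 8005151 to 15495249 per library. Levels are given as CPM, the reads of a gene scaled to a fixed library size after TMM correction. Libraries are numbered 1 and 2 within a group as in the sample titles. The series calls them biological replicates, and the labels do not say whether they came from separate mice or cultures, so the spread behind the p-values may in part be technical. That spread was unequal. The median SD of log2 CPM over the 41 TRIM genes was 0.414 in KO LPS, 0.116 in KO steady-state, 0.453 in WT LPS and 0.148 in WT steady-state cells, close to 0.355, 0.111, 0.463 and 0.196 over all tested genes in the same order. Gata1 had 0 reads in each of the 4 KO libraries, against 0 and 1 in WT LPS and 1 and 10 in WT steady-state libraries, so the gene was at or near the limit of detection in WT cells too and checks the labels only weakly. All 10 dendritic cell markers listed (Itgax, H2-Aa, H2-Ab1, Cd74, Flt3, Zbtb46, Ccr7, Batf3, Irf4 and Irf8) were detected. Their summed level was 5140 and 10000 CPM in KO LPS libraries, 22100 and 21000 CPM in KO steady-state libraries, 17800 and 12100 CPM in WT LPS libraries, and 29800 and 17600 CPM in WT steady-state libraries. The 9 macrophage markers measured summed to 4940 and 4950 CPM in KO LPS, 10800 and 10000 in KO steady-state, 4370 and 1910 in WT LPS, and 9430 and 6140 in WT steady-state libraries. Summed B cell markers lay between 0.529 and 30 CPM and T cell markers between 0.153 and 5.99. Neutrophil markers lay between 4.78 and 242, and mast cell and basophil markers between 10.4 and 135. The highest B cell and neutrophil sums were both in WT steady-state library 2, the library with 10 Gata1 reads. Prss34, Cpa3 and Mcpt8, of mast cells and basophils, had 55.9, 16.7 and 10.3 CPM there and at most 1.55 in any other library. The mast cell and basophil sum of 135 CPM, in WT LPS library 1, was nearly all Gata2. The part of these traces in the results was not tested. The macrophage sum was lower in LPS than in steady-state libraries of both genotypes. Apoe was its largest part at steady state. Apoe fell from 6597 and 6303 to 947 and 372 CPM with LPS in KO libraries. WT libraries went from 5776 and 3319 to 44.4 and 48.9 CPM of Apoe. Cd14 was higher with LPS, at 1199 and 1552 against 186.5 and 162 CPM in KO libraries. For WT libraries Cd14 stood at 2455 and 1017 against 199 and 109 CPM. Of the 9 macrophage markers, edgeR called 1 higher and 5 lower with LPS in each genotype. The dendritic cell sum was lower with LPS without overlap in KO cells. Of the 10 dendritic cell markers, edgeR called 5 lower with LPS in KO cells and 1 in WT cells, with 0 higher. It called 0 of them for a difference in LPS response between genotypes. The part of either list in the LPS results was not tested. In bulk RNA, fewer cells of a type and less RNA per cell cannot be told apart.

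Of the 24 TRIM genes under the filter, 8 had no read in any library, 9 had 1 to 10 reads over all libraries together and 7 had more. None exceeded 12 reads in a library, a count reached by Trim17 and Trim72. Among them were the 4 genes of striated muscle and membrane repair, Trim54, Trim55, Trim63 and Trim72. Trim72, which encodes the membrane repair protein MG53, had 2 and 4 reads in KO LPS, 0 and 0 in KO steady-state, 12 and 12 in WT LPS, and 3 and 1 in WT steady-state libraries. Trim71, a stem cell factor, had at most 2 reads in a library. Trim38 had 1 read in all 8 libraries together. Trim9, a neuronal TRIM, had 7 and 10 reads in KO LPS, 0 and 1 in KO steady-state, 2 and 6 in WT LPS, and 0 and 0 in WT steady-state libraries. These counts are too low for a level, and no fold change is given for them.

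Divided by exon length, the mean levels of the 41 genes over all libraries ran from 0.0790 CPM per kb for Trim2 to 73.2 CPM per kb for Trim25. Below Trim25, Trim30a had 48.2, Trim35 39.6 and Trim28 39.1 CPM per kb. The last 2 of these did not differ beyond the spread between libraries. Trim8, with 23.8, Trim41, with 21, and Trim30d, with 16.9 CPM per kb, came next. At steady state the order was different: Trim35 led with 48.9 CPM per kb in KO and 52.8 in WT cells, Trim28 had 37.3 and 40.5, and Trim25 had 30.4 and 42.8 CPM per kb. TRIM35 is known in human cells for binding pyruvate kinase M2, and TRIM28 is the co-repressor recruited by KRAB zinc finger proteins to silence retroelements.

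Interferon acts on promoters through the ISRE, a repeat of GAAA separated by a pair of bases, which is bound by interferon regulatory factors. RefSeq promoter windows (GRCm38.p6, from 250 bases before to 50 after a start) were at hand for 30 of the 41 tested genes, as 42 windows. GAAA followed by any 2 bases and a second GAAA was searched on both strands. It stood in 9 of the 42 windows (21.4%), against 1131 of 32851 windows of all genes (3.44%). The latter windows cover 27025 genes and, unlike the TRIM windows, were not limited to genes that passed the filter. The 8 genes with a match were Trim2, Trim12a, Trim12c, Trim21, Trim26, Trim30a, Trim30d and Trim34a, so 5 of them lie in 1 cluster of related genes on chromosome 7. The matches in paralogs are not independent, since the genes share sequence. The GAS form TTCNNNGAA stood in 2 of the 42 windows (4.76%; Trim45 and Trim46) against 8.30% of all windows. An NF-kB-like form, GGG and TTCC separated by any 3 bases, stood in 1 (2.38%; Trim28) against 5.56%. The GATA-like AGATAA stood in 2 (4.76%; Trim34b and Trim39) against 11.2%. A match is a run of letters and not a shown binding site.

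The 250 bases before the start are printed for the 3 genes of the cluster with the most reads and for Trim25 and Trim47, which changed with LPS. They are given 5′ to 3′ on the gene's strand, with the ISRE-like run in capitals. It appears as TTTC, 2 bases, TTTC because it lies on the opposite strand. In Trim30a and Trim30d the run began 36 and 41 bases before the start, and the 30 bases centred on it were identical (30 of 30). Trim25 and Trim47 had no ISRE-like, GAS or NF-kB-like run in their windows, which says only that these letters are not there.
Trim30a, chr7:104465194-104465443, minus strand: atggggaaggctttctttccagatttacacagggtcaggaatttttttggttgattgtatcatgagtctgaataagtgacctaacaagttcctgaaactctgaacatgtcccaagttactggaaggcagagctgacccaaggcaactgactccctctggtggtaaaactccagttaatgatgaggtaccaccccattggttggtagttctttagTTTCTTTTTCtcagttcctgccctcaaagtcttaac
Trim30d, chr7:104507850-104508099, minus strand: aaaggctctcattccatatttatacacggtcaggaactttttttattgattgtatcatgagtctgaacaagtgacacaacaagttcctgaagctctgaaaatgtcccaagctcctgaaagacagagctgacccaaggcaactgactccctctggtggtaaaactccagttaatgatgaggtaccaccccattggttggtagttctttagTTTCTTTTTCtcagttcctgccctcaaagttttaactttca
Trim12c, chr7:104353350-104353599, minus strand: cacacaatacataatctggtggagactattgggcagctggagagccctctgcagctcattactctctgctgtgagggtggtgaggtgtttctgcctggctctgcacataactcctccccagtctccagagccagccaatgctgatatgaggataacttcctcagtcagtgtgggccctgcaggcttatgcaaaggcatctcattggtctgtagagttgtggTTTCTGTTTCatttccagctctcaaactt
Trim25, chr11:88999153-88999402, plus strand: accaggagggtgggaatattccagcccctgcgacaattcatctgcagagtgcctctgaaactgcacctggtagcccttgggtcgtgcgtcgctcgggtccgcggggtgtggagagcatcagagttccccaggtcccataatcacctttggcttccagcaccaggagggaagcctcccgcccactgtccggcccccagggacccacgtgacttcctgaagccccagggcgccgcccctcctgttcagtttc
Trim47, chr11:116110236-116110485, minus strand: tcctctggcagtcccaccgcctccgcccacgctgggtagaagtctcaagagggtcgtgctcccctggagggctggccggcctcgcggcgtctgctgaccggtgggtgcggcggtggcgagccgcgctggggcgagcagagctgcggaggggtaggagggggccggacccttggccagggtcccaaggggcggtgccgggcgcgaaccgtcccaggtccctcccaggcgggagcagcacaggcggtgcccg

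In the other genes the run is shown with 10 bases on each side, to compare its surroundings between family members. In Trim2 it began 28 bases after the first transcribed base, in Trim12a and Trim34a 10 bases after it, in Trim21 13 bases after it and in Trim26 160 bases before it. In each gene 1 run is in capitals. Trim21 and Trim26 had a second, overlapping run, 19 bases after and 154 bases before the start, and the other promoter window of Trim30a had a run 2 bases after its start. The windows of Trim12a and Trim12c had 28 of 30 bases in common.
Trim2, chr3:84212791-84212820, minus strand: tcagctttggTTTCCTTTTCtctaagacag
Trim12a, chr7:104315466-104315495, minus strand: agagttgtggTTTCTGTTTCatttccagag
Trim34a, chr7:104244457-104244486, plus strand: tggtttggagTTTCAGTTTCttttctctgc
Trim21, chr7:102565450-102565479, minus strand: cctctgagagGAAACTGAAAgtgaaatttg
Trim26, chr17:36836976-36837005, plus strand: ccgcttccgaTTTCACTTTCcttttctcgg

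LPS changed 4 TRIM genes in KO cells and 4 in WT cells, and they were the same 4. Trim25, Trim30a and Trim43b rose and Trim47 fell, while 37 tested members passed in no comparison. A call is an adjusted p under 0.05 (edgeR's quasi-likelihood test, Benjamini-Hochberg adjustment across the 12442 genes). In KO cells the 3 higher members were 7.32% of the 41, against 5.3% of all tested genes called higher, and the 1 lower was 2.44%, against 6.46%. In WT cells they were 7.32% against 3% called higher and 2.44% against 3.49% called lower. With 3 and 1 genes, these shares are not read as differing from the background. At an unadjusted p under 0.05, 11 members (26.8%) passed in KO cells and 12 (29.3%) in WT cells, against 32.8% and 26.7% of all genes. With library number added to the fit as a replicate block, 1 member passed in KO cells (Trim25) and 2 in WT cells (Trim43b and Trim47). No member then passed in both, though the labels do not say that library numbers pair samples. The counts of calls rested on single libraries. In KO cells the count was 0 without any 1 of the 4 steady-state libraries, 2 without KO LPS library 1, 1 without KO LPS library 2 and 10 without either WT LPS library. In WT cells it was 0 without either WT steady-state library, 1 without either KO steady-state library and 14 without WT LPS library 2.

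**Figure D1:**
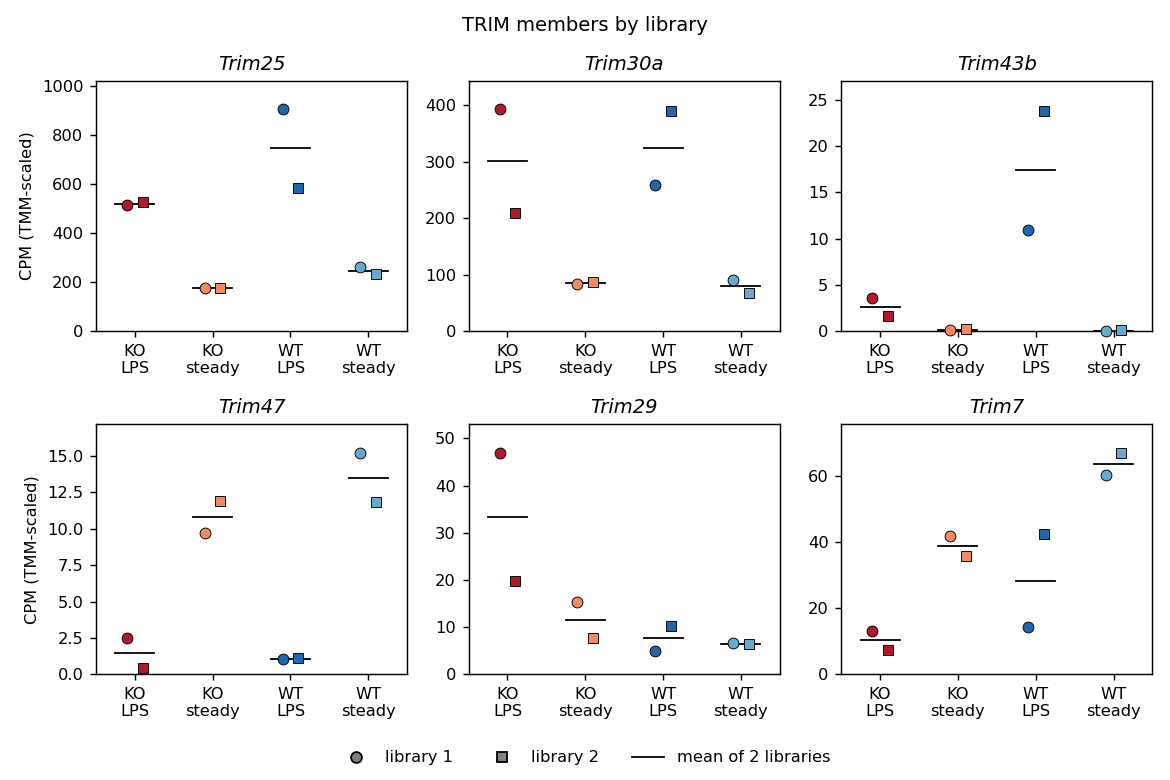
CPM (vertical axis) of 6 TRIM genes in each library, by group (horizontal axis), with circles for library 1, squares for library 2 and a line at their mean. For Trim25, Trim30a and Trim43b the LPS libraries lie above the steady-state libraries of either genotype, and for Trim47 they lie below. For Trim29 the KO LPS libraries, at 47.0 and 19.8 CPM, lie above all 6 others.

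Trim25, whose product adds lysine-63-linked ubiquitin chains to the RNA sensor RIG-I, was the most abundant of the 4 (chromosome 11, 88999376 to 89020293, mm10). It had 513 and 526 CPM in KO LPS libraries, against 175 and 175 CPM in KO steady-state libraries. In WT cells, LPS libraries had 907 and 582 CPM, against 262 and 231 CPM in WT steady-state libraries. The groups did not overlap in either genotype, and the pair of WT LPS libraries lay further apart than the pair of KO LPS libraries. The log2 fold change with LPS was 1.57 ± 0.30 (SE) in KO cells (edgeR adjusted p = 0.0217) and 1.60 ± 0.30 in WT cells (edgeR adjusted p = 0.0263). Leaving out 1 library gave log2 fold changes between 1.53 and 1.59 in KO and between 1.25 and 1.88 in WT cells, but the call was often lost. In KO cells the edgeR adjusted p was 0.0535 and 0.102 without KO LPS library 1 or 2, 0.164 and 0.167 without a KO steady-state library, and 0.0528 and 0.0518 without a WT steady-state library. In WT cells it was 0.0764 and 0.0740 without a KO steady-state library and 0.164 and 0.180 without a WT steady-state library, and 0.130 with only the 4 WT libraries fitted.

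Trim30a, an interferon-induced gene whose product in mouse macrophages limits TLR signalling by turnover of TAB2 and TAB3, rose as well (chromosome 7, 104409025 to 104465193). It had 394 and 209.6 CPM in KO LPS libraries, against 84.0 and 87.9 CPM in KO steady-state libraries. With LPS, WT libraries had 259 and 390.1 CPM, against 91.3 and 68.1 CPM in WT steady-state libraries. Every LPS library was above every steady-state library, and the LPS libraries of the genotypes overlapped. Its log2 fold change was 1.81 ± 0.38 in KO (edgeR adjusted p = 0.0278) and 2.03 ± 0.38 in WT cells (edgeR adjusted p = 0.0267). For the KO comparison, the edgeR adjusted p was 0.0745 without KO LPS library 1, 0.179 and 0.173 without a KO steady-state library, and 0.0596 and 0.0593 without a WT steady-state library. In WT cells it was 0.0657 and 0.0634 without a KO steady-state library, 0.151 and 0.185 without a WT steady-state library, and 0.0713 with only the WT libraries fitted. Trim30a shared 6.0% of its 50-base exon words with Trim30d, and the counts of the pair can be split or mixed in that part.

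Trim43b had the largest fold change with LPS of the family in both genotypes, from a level near 0 (chromosome 9, 89084624 to 89092835). The Trim43 genes are known from the preimplantation embryo, and human TRIM43 restricts herpesviruses. KO LPS libraries held 32 and 11 reads, against 1 and 3 reads in KO steady-state libraries. WT LPS libraries held 83 and 385 reads, against 0 and 2 reads in WT steady-state libraries. The gene was thus barely detected without LPS, and most of its reads came from 1 WT LPS library. Summed over a group and scaled to its depth, KO LPS cells had 16.9 times the KO steady-state level (95% counting interval 6.14 to 64.8). WT LPS cells had 235 times the WT steady-state level (64.6 to 1940). These intervals cover counting error only. The fitted log2 fold changes, which depend on the prior count at such levels, were 3.91 ± 0.90 in KO (edgeR adjusted p = 0.0362) and 7.54 ± 0.98 in WT cells (edgeR adjusted p = 0.00881). In KO cells the edgeR adjusted p was 0.0964 and 0.0869 without KO LPS library 1 or 2, 0.212 and 0.144 without KO steady-state library 1 or 2, and 0.0567 and 0.0557 without a WT steady-state library. In WT cells it was 0.0840 and 0.0578 without WT steady-state library 1 or 2, with fitted log2 fold changes of 6.79 and 10.53. Trim43b shared 34.4% of its 50-base exon words with Trim43a and 30.3% with Trim43c, so which copy gave the reads is uncertain. Those copies held few reads themselves, at most 1 per library for Trim43a and 11 for Trim43c.

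Trim47 was the member that fell (chromosome 11, 116105752 to 116127210). It had 2.48 and 0.459 CPM in KO LPS libraries, against 9.69 and 11.9 CPM in KO steady-state libraries. WT LPS libraries had 1.06 and 1.11 CPM, against 15.2 and 11.8 CPM in WT steady-state libraries. These LPS values rest on 22 and 3 reads in KO and on 8 and 18 reads in WT libraries, and none reached the lowest steady-state value. The log2 fold change was -2.81 ± 0.64 in KO (edgeR adjusted p = 0.0347) and -3.62 ± 0.65 in WT cells (edgeR adjusted p = 0.0234). In KO cells the fold change was -4.52 without KO LPS library 1 and -2.13 without KO LPS library 2, where the edgeR adjusted p was 0.0844. It was 0.131 and 0.171 without KO steady-state library 1 or 2, and 0.0818 and 0.0795 without a WT steady-state library. In WT cells it was 0.0574 and 0.0566 without a KO steady-state library and 0.149 and 0.102 without WT steady-state library 1 or 2. The neighbouring Trim65, on the same strand, overlaps 225 exon bases of Trim47 (8.2%). It encodes a ligase of the RNA sensor MDA5 and had 8.92 and 2.76 CPM in KO LPS, 15.6 and 15.5 in KO steady-state, 1.85 and 10.3 in WT LPS, and 13.7 and 14.3 CPM in WT steady-state libraries. Trim65 was lower in the LPS libraries of both genotypes without overlap, and did not pass the test.

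**Figure D2:**
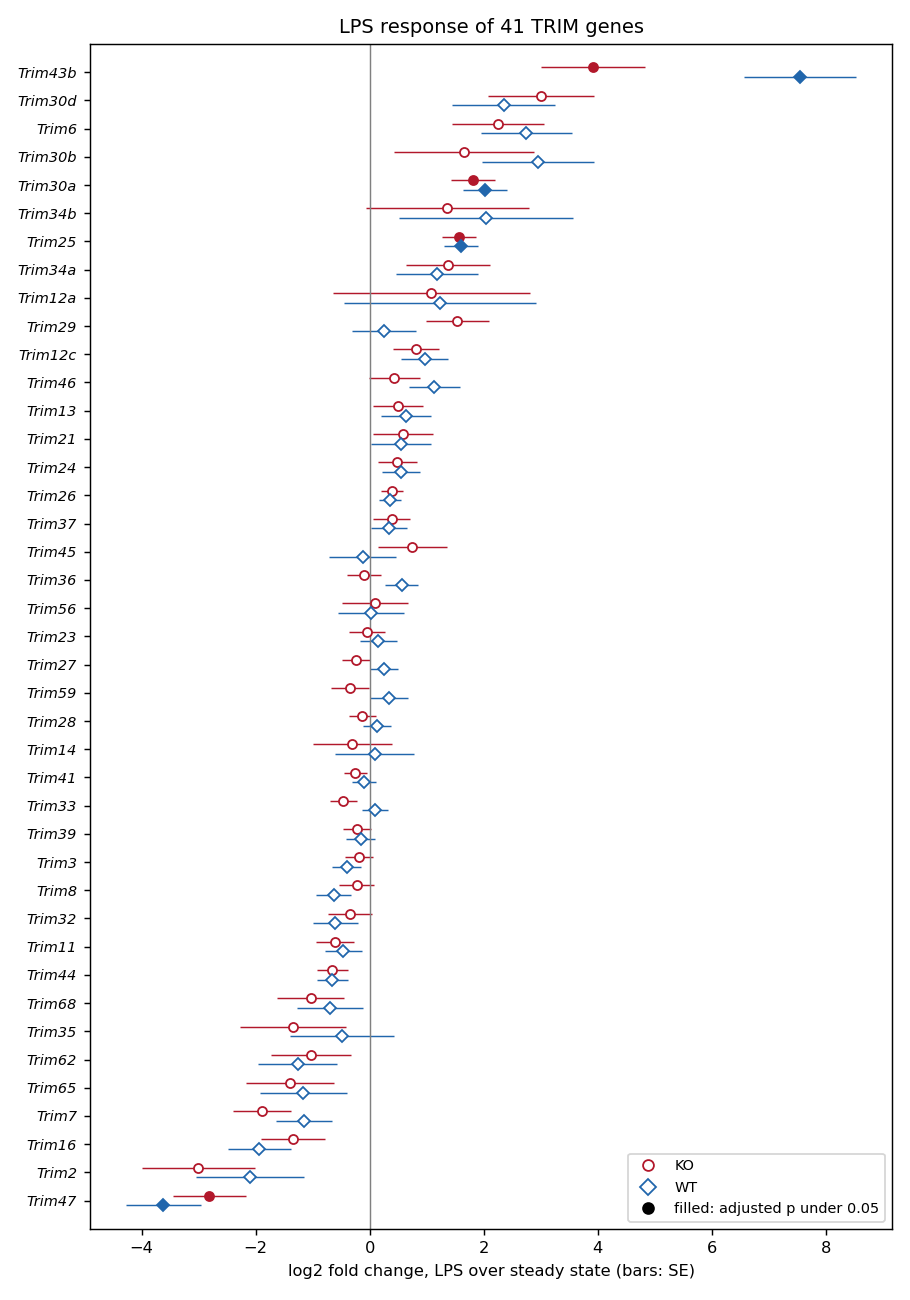
Log2 fold change of LPS over steady state (horizontal axis) for the 41 tested TRIM genes (rows), with red circles for KO, blue diamonds for WT and bars of 1 SE. Filled points passed the adjusted p of 0.05, which are Trim43b, Trim30a, Trim25 and Trim47 in both genotypes.

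Over the 41 members the LPS responses of KO and WT cells ran alike. Pearson's r between the log2 fold changes was 0.906 and Spearman's rho 0.910, and 33 of 41 (80.5%) had the same sign. Over the 12442 tested genes r was 0.794, rho 0.758 and the same-sign share 79.4%. These are descriptions across genes of the same libraries, and genes are not independent replicates. The median log2 fold change of the members was -0.10 in KO and 0.15 in WT cells, against -0.02 and 0.00 over all genes, with 19 of 41 above 0 in KO and 25 of 41 in WT cells. Without overlap between LPS and steady-state libraries, 13 members were higher and 15 lower in KO cells (31.7% and 36.6%), against 34.4% and 38.2% of all genes. In WT cells 15 were higher and 12 lower (36.6% and 29.3%), against 27.5% and 29.1%.

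Of 16 antiviral and interferon-linked TRIMs listed, Trim5 and Trim30c had no row in the count table, and 13 passed the filter. Of these 13, 12 had a positive log2 fold change with LPS in KO cells (median 1.36, range -0.30 to 3.0) and 13 in WT cells (median 1.23, range 0.03 to 2.95). The other 28 members had 7 and 12 above 0, with medians of -0.25 and -0.14. Only 2 of the 13, Trim25 and Trim30a, rose by the test in either genotype, and the genes were listed with earlier results of these data known, so these counts describe and do not test the list.

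Trim6, Trim30b and Trim30d had the smallest adjusted p in either genotype among the rest of that list. Trim6, whose product builds free ubiquitin chains that activate the kinase IKKε, had 12.2 and 8.42 CPM in KO LPS libraries, against 3.41 and 0.885 CPM in KO steady-state libraries. In WT cells, LPS libraries had 48.0 and 11.4 CPM, against 5.02 and 3.79 CPM in WT steady-state libraries. The groups did not overlap, but library 1 of WT LPS cells stood far above library 2. Its log2 fold change was 2.25 ± 0.81 in KO (edgeR adjusted p = 0.109) and 2.75 ± 0.80 in WT cells (edgeR adjusted p = 0.0850). Trim30d had 142 and 38.1 CPM in KO LPS libraries, against 19.5 and 3.01 CPM in KO steady-state libraries. With LPS, WT libraries had 103 and 152 CPM, against 33.1 and 17.1 CPM in WT steady-state libraries. All LPS libraries lay above all steady-state libraries, with a wide spread within KO groups, and the log2 fold change was 3.0 ± 0.93 in KO (edgeR adjusted p = 0.0763) and 2.35 ± 0.90 in WT cells (edgeR adjusted p = 0.152). Trim30b had 1.24 and 0 CPM in KO LPS libraries, against 0.310 and 0.0886 CPM in KO steady-state libraries. WT LPS libraries had 9.12 and 5.57 CPM, against 1.06 and 0.818 CPM in WT steady-state libraries. In WT cells its log2 fold change was 2.95 ± 0.98 (edgeR adjusted p = 0.113), and the KO values rest on at most 11 reads a library. These values moved when 1 library was left out. Without WT LPS library 1 the WT log2 fold change of Trim6 was 1.38 (edgeR adjusted p = 0.284). The KO log2 fold change of Trim30d was 1.75 without KO LPS library 1 and 4.90 without KO steady-state library 1 (edgeR adjusted p = 0.224 and 0.0850), and that of Trim6 was 3.53 and 1.62 without KO steady-state library 1 or 2. Some members crossed the threshold. With all 8 libraries, DESeq2 gave an adjusted p of 0.00296 for Trim30d and 0.0264 for Trim6 in KO cells. In WT cells DESeq2 gave 0.0338 for Trim30d and 0.0267 for Trim30b. In the same order, edgeR with no filter on low counts gave 0.0117, 0.0376, 0.0447 and 0.0476. Under RLE or upper-quartile factors and the stricter filter these did not pass. Leaving out 1 library also moved some past the threshold. In KO cells Trim30d had an edgeR adjusted p of 0.0497 and 0.0499, and Trim6 of 0.0317 and 0.0275, without WT LPS library 1 or 2. In WT cells Trim30b had 0.0477 without KO LPS library 2 and 0.0480 without WT LPS library 2, and Trim6 had 0.0116 without WT LPS library 2 (edgeR adjusted p).

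Trim12c, a mouse relative of the retrovirus restriction factor TRIM5, had 82.0 and 47.1 CPM in KO LPS libraries, against 34.8 and 38.9 CPM in KO steady-state libraries. In WT cells, LPS libraries had 37.4 and 80.0 CPM, against 31.4 and 29.1 CPM in WT steady-state libraries, and the log2 fold change in WT cells was 0.96 ± 0.41 (edgeR adjusted p = 0.184). Within each genotype its LPS libraries were higher than the steady-state libraries, narrowly so in WT LPS library 1. Trim21, the cytosolic antibody receptor, had 52.6 and 22.7 CPM in KO LPS libraries, against 25.8 and 24.7 CPM in KO steady-state libraries. With LPS, WT libraries had 21.9 and 60.6 CPM, against 28.8 and 28.1 CPM in WT steady-state libraries. In each genotype 1 LPS library was above and 1 below the steady-state pair. Trim14, which binds the adaptor MAVS, had the same form, with 40.1 and 14.4 CPM in KO LPS and 10.8 and 51.6 CPM in WT LPS libraries, against 35.0 and 32.4 CPM in KO steady-state and 29.0 and 30.3 CPM in WT steady-state libraries. Of the Trim14 exon bases, 31.3% overlap the opposite-strand gene Nans, and the library kit does not mark strand, so reads of the pair cannot be told apart there. Trim56, which acts on STING and TLR3 signalling, had 49.2 and 13.8 CPM in KO LPS and 14.6 and 26.1 CPM in WT LPS libraries, against 33.5 and 25.6 CPM in KO steady-state and 16.1 and 23.8 CPM in WT steady-state libraries. Trim26, linked to turnover of nuclear IRF3, had 88.9 and 84.7 CPM in KO LPS and 91.5 and 99.5 CPM in WT LPS libraries, against 66.6 and 66.1 CPM in KO steady-state and 75.2 and 73.8 CPM in WT steady-state libraries. Its groups did not overlap and it did not pass the test.

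The split between LPS libraries seen in Trim14, Trim21 and Trim56 recurred in the family. In KO LPS cells 15 of 41 members (36.6%) differed by more than 2-fold between the libraries, against 22.7% of all genes, and all 15 were higher in library 1. In WT LPS cells 14 members (34.1%) did, against 34.0% of all genes, and 13 of them were higher in library 2, the exception being Trim6. The direction was not counted over all genes, so it is not read as a trait of the family. At steady state 8 members differed that much in KO (19.5%, against 6.39%) and 4 in WT cells (9.76%, against 8.07%). Trim35 had 131 and 47.3 CPM in KO LPS libraries and 30.9 and 315 CPM in WT LPS libraries, against 231 and 220.5 CPM in KO steady-state and 196 and 292 CPM in WT steady-state libraries. The spread of Trim35 between libraries of 1 treated group thus exceeded its difference between groups. What sets the libraries of a treated group apart is not given in the labels.

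Another library pattern was seen in the cluster of 8 tested Trim genes on chromosome 7 (104218793 to 104507849; in order Trim6, Trim34a, Trim12a, Trim34b, Trim12c, Trim30b, Trim30a, Trim30d). Trim12a was nearly undetected in the KO libraries numbered 2, with 0 reads with LPS and 1 at steady state, against 150 and 103 reads in the KO libraries numbered 1. WT cells had 221 and 299 reads with LPS and 157 and 70 at steady state. Trim34b was nearly undetected in the WT libraries numbered 1 instead, with 1 read with LPS and 0 at steady state, against 68 and 14 in the WT libraries numbered 2. In KO cells Trim34b had 34 and 27 reads with LPS and 7 and 29 at steady state. Both near-absences therefore followed genotype and library number across treatments.

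As a share of the reads of Trim12a and Trim12c together, Trim12a took 17.1% and 0% in KO LPS libraries (library 2 had 0 of 308 reads, Wilson 95% upper bound 1.23%) and 18.7% and 0.227% in KO steady-state libraries. Its shares were 43.8% and 18.8% in WT LPS and 32.6% and 15.2% in WT steady-state libraries. Trim34b took 14.7% and 43.5% of the reads of Trim34a and Trim34b in KO LPS and 6.48% and 47.5% in KO steady-state libraries. In WT cells its shares were 0.444% and 13.2% with LPS and 0% and 11.2% at steady state (0 of 176 reads, upper bound 2.14%). Trim30d took 26.5% and 15.4% of the reads of Trim30a and Trim30d in KO LPS, 18.8% and 3.31% in KO steady-state, 28.5% and 28.0% in WT LPS, and 26.6% and 20.1% in WT steady-state libraries. For each of these 3 pairs, the order of library 1 and library 2 within a genotype was the same with LPS and at steady state, except that the Trim30d shares of the WT LPS libraries lay within each other's Wilson intervals. These intervals cover counting error only. Trim34b shares 56.8% of its 50-base exon words with Trim34a, and Trim12a shares 4.0% with Trim12c. With Trim5, which has no row in the count table, Trim12a shares 5.0% and Trim12c 24.2% of these words. Reads of the related genes can be split or mixed in such parts. In addition, 23.5% of the Trim34a exon bases lie opposite the antisense gene Gm47248. The labels do not say whether libraries with the same number came from the same mouse, so this is a pattern of the libraries and its source was not tested.

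**Figure D3:**
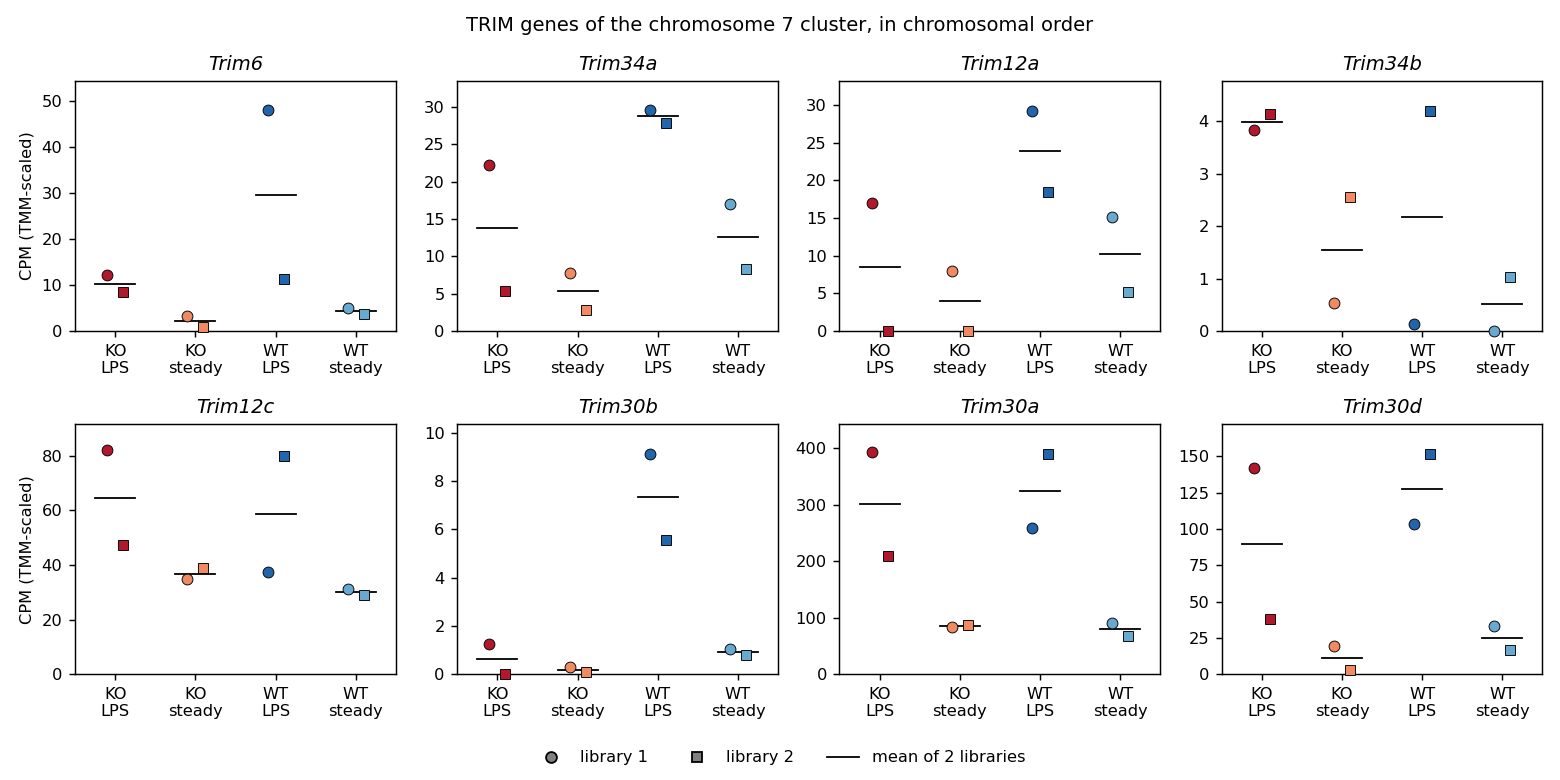
CPM (vertical axes, each from 0) of the 8 tested TRIM genes of the chromosome 7 cluster in each library, by group, with circles for library 1, squares for library 2 and a line at their mean. Trim12a lies at or near 0 in the KO libraries numbered 2, and Trim34b in the WT libraries numbered 1, with LPS and at steady state.

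On the same chromosome but outside the cluster, Trim28, Trim68 and Trim3 showed no such near-absence. Trim3 had 30.5 and 30.2 CPM in KO LPS, 35.3 and 33.8 in KO steady-state, 24.5 and 34.9 in WT LPS, and 42.1 and 36.7 CPM in WT steady-state libraries. Its libraries lay close together except in WT LPS cells.

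The TIF1 co-regulators Trim24, Trim28 and Trim33, whose products carry a PHD finger and bromodomain, had 0 calls of 3 in every comparison. Trim28 had 122 and 162 CPM in KO LPS and 196 and 173 CPM in WT LPS libraries, against 151 and 159 CPM in KO steady-state and 174 and 163 CPM in WT steady-state libraries. Trim33, a ligase of Smad4, had 51.7 and 43.3 CPM in KO LPS and 75.6 and 61.9 CPM in WT LPS libraries, against 65.5 and 65.8 CPM in KO steady-state and 57.2 and 71.5 CPM in WT steady-state libraries. The levels of both stayed within 2-fold across the 8 libraries.

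Of the 3 NHL-repeat members tested, Trim2, a ligase of neurofilament light chain, had the lowest level per kb. It had 7 and 0 reads in KO LPS libraries, against 42 and 43 reads in KO steady-state libraries. WT LPS libraries had 2 and 9 reads, against 14 and 33 reads in WT steady-state libraries. LPS libraries lay below steady-state libraries in both genotypes, at counts near the limit of detection. The log2 fold change was -3.01 ± 0.99 in KO (edgeR adjusted p = 0.0878) and -2.10 ± 0.95 in WT cells (edgeR adjusted p = 0.206). For the KO comparison, the log2 fold change was -8.31 (edgeR adjusted p = 0.0419) without KO LPS library 1, which left the library with 0 reads, and -2.17 (edgeR adjusted p = 0.240) without KO LPS library 2. The edgeR adjusted p was 0.264 and 0.305 without KO steady-state library 1 or 2, and 0.0484 and 0.0488 without WT LPS library 1 or 2. Trim3 and Trim32 did not pass either, which left 0 calls among the 3 NHL-repeat members tested.

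Among 15 other widely expressed members, 1 fell (Trim47) and the median log2 fold change was -0.61 in KO and -0.49 in WT cells. Trim16, which lacks a RING domain, had 1.13 and 0.612 CPM in KO LPS libraries, against 2.40 and 2.12 CPM in KO steady-state libraries. In WT cells, LPS libraries had 1.06 and 0.619 CPM, against 3.38 and 2.90 CPM in WT steady-state libraries, and the log2 fold change in WT cells was -1.94 ± 0.56 (edgeR adjusted p = 0.0826). Both genotypes were lower with LPS without overlap, on 4 to 10 reads a library. Trim62, which activates the adaptor CARD9, had 6.78 and 2.76 CPM in KO LPS and 2.25 and 10.8 CPM in WT LPS libraries, against 10.9 and 8.77 CPM in KO steady-state and 15.1 and 16.8 CPM in WT steady-state libraries. Trim8, Trim11, Trim41 and Trim44, like Trim62, were lower with LPS in both genotypes without overlap, and none of them passed. Trim7, outside these lists, encodes a protein that binds the glycogen primer glycogenin. Trim7 had 13.2 and 7.50 CPM in KO LPS libraries, against 41.6 and 35.7 CPM in KO steady-state libraries. With LPS, WT libraries had 14.3 and 42.3 CPM, against 60.3 and 66.9 CPM in WT steady-state libraries. Its log2 fold change in KO cells was -1.89 ± 0.52 (edgeR adjusted p = 0.0557), and the edgeR adjusted p was 0.00643 and 0.00662 without WT LPS library 1 or 2. The 2 membrane-anchored members, Trim13 of the endoplasmic reticulum and Trim59, and the 2 tested cytoskeletal members, Trim36 and Trim46, gave 0 calls.

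Between genotypes no TRIM gene passed the test, with LPS or at steady state. With LPS, edgeR's quasi-likelihood test called 0 of 41 members, against 0.281% of all genes called higher and 0.49% called lower in KO cells. At an unadjusted p under 0.05, 5 members (12.2%) passed, Trim7, Trim27, Trim29, Trim30b and Trim43b, against 16.9% of all genes, and DESeq2 called 3. Without WT LPS library 1, edgeR called 2, Trim7 and Trim43b. At steady state 0 members passed, against 0% of all genes, and 0 passed at an unadjusted p under 0.05, against 2.63%, nor did DESeq2 call any. The interaction, which compares the LPS response in KO with that in WT cells, gave 0 calls, against 0% of all genes. There 1 member (2.44%), Trim43b, had an unadjusted p under 0.05, against 6.41%, and DESeq2 called 0.

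Trim29 stood highest in KO over WT cells with LPS. It encodes a RING-less protein that in mouse alveolar macrophages restrains interferon and cytokine production through NEMO. It had 47.0 and 19.8 CPM in KO LPS libraries, against 5.03 and 10.3 CPM in WT LPS libraries. At steady state KO libraries had 15.4 and 7.62 CPM, against 6.66 and 6.39 CPM in WT libraries. The KO libraries lay above the WT libraries under both treatments. Its log2 fold change was 2.10 ± 0.57 with LPS (edgeR adjusted p = 0.126), and the interaction was 1.28 ± 0.78 (edgeR adjusted p = 0.912). The fit with no filter on low counts gave 0.0397 and DESeq2 gave 0.00913 as adjusted p with LPS, while edgeR gave 0.429 with only the groups compared. Without KO LPS library 1 the log2 fold change was 1.34 (edgeR adjusted p = 0.366). Trim29 was the only member that was higher without overlap in KO than in WT cells with LPS (2.44% of 41, against 18% of all genes).

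Trim43b and Trim30b stood lowest. In KO LPS cells Trim43b had 3.62 and 1.68 CPM, against 11 and 23.8 CPM in WT LPS cells. The KO level was 0.142 times the WT level (95% counting interval 0.101 to 0.194, counting error only). The log2 fold change was -2.70 ± 0.70 (edgeR adjusted p = 0.116), and it was -3.14 (edgeR adjusted p = 0.0352) without WT LPS library 1. At steady state Trim43b had 4 reads in KO and 2 in WT libraries together, a ratio of 1.97 (counting interval 0.282 to 21.8). Its interaction was -3.63 ± 1.51 (edgeR adjusted p = 0.764), so the larger LPS response of WT cells was not shown to differ from that of KO cells. For Trim30b the KO LPS libraries had 11 and 0 reads, against 69 and 90 reads in WT LPS libraries. KO steady-state libraries had 4 and 1 reads, against 11 and 11 reads in WT steady-state libraries. Its log2 fold change was -3.44 ± 1.04 with LPS (edgeR adjusted p = 0.153) and -2.14 ± 1.17 at steady state (edgeR adjusted p = 1). When 1 library was left out, the value with LPS ran from -9.35 (without KO LPS library 1, which left the library with 0 reads) to -2.57 (without KO LPS library 2). Trim6 followed with -1.51 ± 0.76 with LPS (edgeR adjusted p = 0.374), and ran from -2.21 without WT LPS library 2 to -0.14 without WT LPS library 1.

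**Figure D4:**
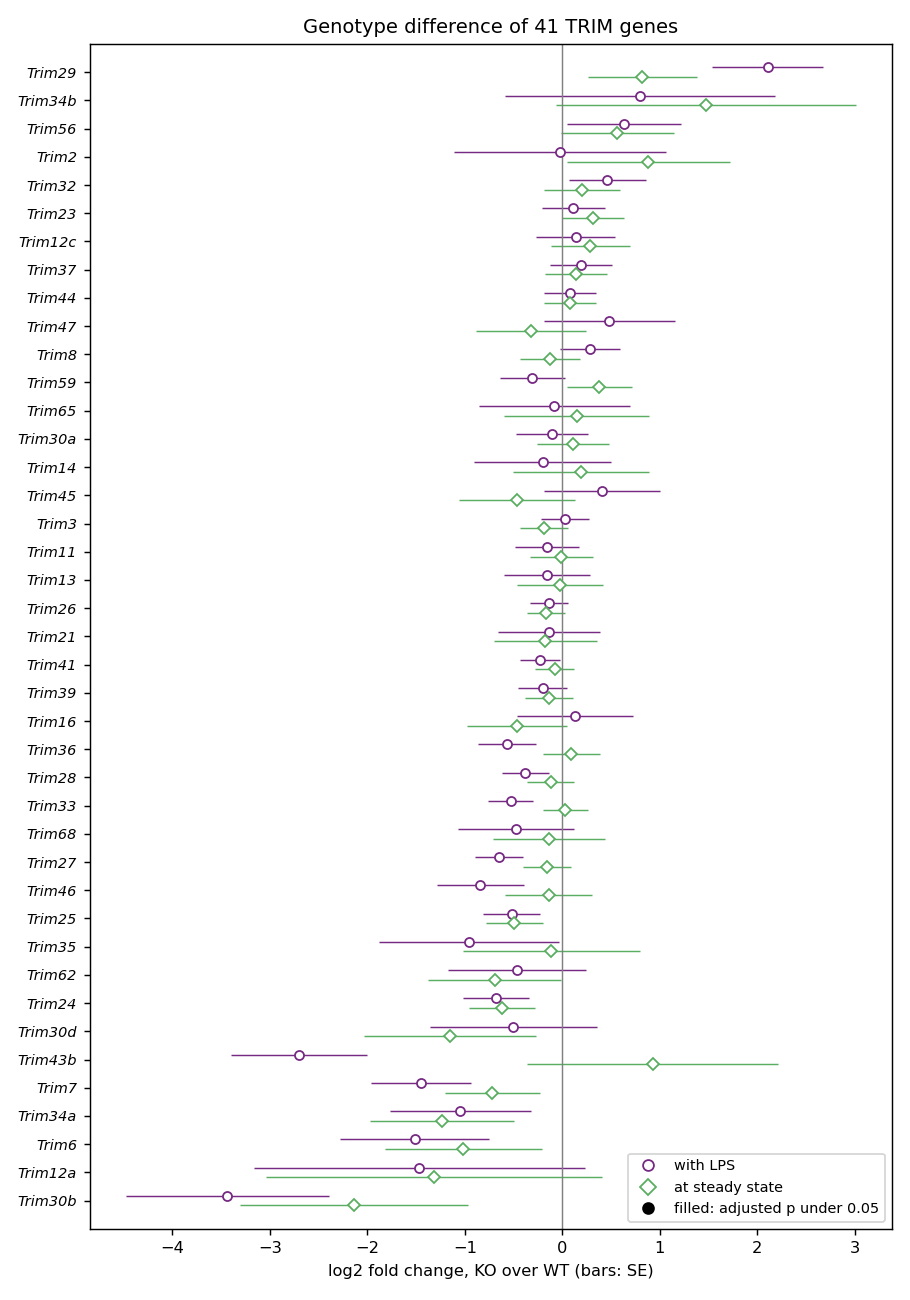
Log2 fold change of KO over WT (horizontal axis) for the 41 tested TRIM genes (rows), with purple circles for cells with LPS, green diamonds for steady state and bars of 1 SE. No point is filled, since no member passed the adjusted p of 0.05, and with LPS 28 of the 41 circles lie below 0.

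With LPS, 28 of 41 members were lower and 13 higher in KO than in WT cells, with a median log2 fold change of -0.20 against -0.01 over all genes. Without overlap between libraries, 14 were lower (34.1%, against 18.1% of all genes). They were Trim7, Trim12a, Trim24, Trim25, Trim26, Trim27, Trim28, Trim30b, Trim33, Trim34a, Trim36, Trim41, Trim43b and Trim46. The split rested on single libraries: it was 20 higher and 21 lower without WT LPS library 2 and 19 higher and 22 lower without KO LPS library 2, while it was 7 and 34 without WT LPS library 1 and 6 and 35 without KO LPS library 1. Trim27, a retromer-linked ligase, had 35.0 and 49.1 CPM in KO LPS libraries, against 69.3 and 62.7 CPM in WT LPS libraries. KO steady-state libraries had 45.7 and 53.6 CPM, against 53.5 and 57.0 CPM in WT steady-state libraries. Trim24 had 39.4 and 56.0 CPM in KO LPS libraries, against 89.4 and 63.4 CPM in WT LPS libraries. Both were lower in KO cells without overlap with LPS. The summed dendritic cell markers were 5140 and 10000 CPM in KO LPS libraries, against 17800 and 12100 CPM in WT LPS libraries. Of the 10 dendritic cell markers, 1 was called lower in KO cells and 0 higher. Itgax, H2-Aa, Flt3, Zbtb46, Ccr7, Batf3 and Irf8 were lower in KO LPS than in WT LPS libraries without overlap, H2-Aa only narrowly. Irf8 had 568 and 266 CPM in KO LPS libraries, against 2022 and 2292 CPM in WT LPS libraries. H2-Ab1, Cd74 and Irf4 overlapped. The summed macrophage markers were 4940 and 4950 CPM in KO LPS libraries, against 4370 and 1910 CPM in WT LPS libraries, and 1 of the 9 was called higher in KO cells. Apoe, an apolipoprotein gene of macrophages on that list, had 947 and 372 CPM in KO LPS libraries, against 44.4 and 48.9 CPM in WT LPS libraries. Csf1r, with 1346 and 1133 CPM against 657 and 386 CPM, was also higher in KO LPS libraries without overlap. C1qa had 48.7 and 20.7 CPM in KO LPS libraries, against 5.55 and 13.3 CPM in WT LPS libraries. C1qc had 75.7 and 21.4 CPM, against 7.41 and 19.9 CPM. Both were likewise higher in KO LPS libraries without overlap. The remaining markers measured, Mertk, Cd68, Cd14, C1qb and Mrc1, overlapped between genotypes. Cd14 had 1199 and 1552 CPM in KO LPS libraries, against 2455 and 1017 in WT LPS libraries. Cd68 had 1145 and 1820 CPM, against 1180 and 374 CPM. The part of either list in these differences was not tested.

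At steady state 25 members were lower and 16 higher in KO than in WT cells (median -0.12, against -0.01). Without overlap, 15 were lower and 10 higher (36.6% and 24.4%), against 23.4% and 22.1% of all genes. Highest on the log2 scale were Trim34b at 1.47 ± 1.54, Trim43b at 0.93 ± 1.28 and Trim2 at 0.88 ± 0.84, and lowest were Trim30b, given above, Trim12a at -1.31 ± 1.72 and Trim34a at -1.23 ± 0.73 (edgeR adjusted p = 1 for each). Without KO steady-state library 2, Trim34b stood at -0.011 and Trim43b at -0.081, so their direction is not known. With LPS Trim34b stood at 0.80 ± 1.38 (edgeR adjusted p = 0.836) and at -0.084 without WT LPS library 1, and Trim56 stood at 0.63 ± 0.58 (edgeR adjusted p = 0.656) and at -0.57 without KO LPS library 1. In the interaction, Trim45 at 0.87 ± 0.84 (edgeR adjusted p = 0.992) and Trim47 at 0.80 ± 0.88 (edgeR adjusted p = 1) were highest after Trim29. Trim47 stood at -0.91 without KO LPS library 1. Trim2 at -0.90 ± 1.38 and Trim30b at -1.30 ± 1.67 were lowest after Trim43b (edgeR adjusted p = 1 for each).

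The pathway around the antiviral TRIM proteins was described from a list chosen with earlier results of these data known. Its counts therefore describe and do not test the list. Of 30 genes of RNA, DNA and LPS sensing and of interferon signalling listed, 29 were tested, and edgeR's quasi-likelihood test called 7 higher in KO cells and 5 in WT cells, with 0 lower. Of all tested genes it called 5.3% higher and 6.46% lower in KO cells, and 3% higher and 3.49% lower in WT cells. The median log2 fold change was 0.60 in KO and 0.61 in WT cells. Ddx58, which encodes RIG-I, the target of TRIM25, had 308 and 158.5 CPM in KO LPS libraries, against 39.0 and 43.8 CPM in KO steady-state libraries. WT LPS libraries had 100.4 and 198 CPM, against 36.5 and 26.0 CPM in WT steady-state libraries. It rose by 2.49 ± 0.45 on the log2 scale in KO (edgeR adjusted p = 0.0181) and by 2.25 ± 0.45 in WT cells (edgeR adjusted p = 0.0305). Irf7, Isg15 and Usp18 also rose in both genotypes, Ifnar2, Ikbke and Tbk1 passed only the KO test and Zc3hav1 only the WT test. The test called 0 of the 29 between genotypes and 0 in the interaction, so the LPS responses of Ifnar2, Ikbke, Tbk1 and Zc3hav1 were not shown to differ between KO and WT cells.

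Irf7, the interferon-induced interferon regulatory factor, was the most abundant of the list. It had 1253 and 2262 CPM in KO LPS libraries, against 12.6 and 19.0 CPM in KO steady-state libraries, and 1440.0 and 1047 CPM in WT LPS libraries, against 25.7 and 12.1 CPM in WT steady-state libraries. Its log2 fold change was 6.80 ± 0.61 in KO (edgeR adjusted p = 0.00297) and 6.04 ± 0.59 in WT cells (edgeR adjusted p = 0.00454). Ifnb1, the interferon beta gene itself, stayed under the filter, with at most 1.06 CPM in a library.

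Of 10 listed genes of activating and conjugating enzymes, most serve ubiquitin, and Uba7 serves the ubiquitin-like protein ISG15. The 10 genes gave 0 calls in any comparison. Their median log2 fold changes with LPS were 0.16 in KO and 0.34 in WT cells. Uba1, the main ubiquitin E1, had 340 and 348 CPM in KO LPS and 352 and 349.9 CPM in WT LPS libraries, against 382 and 356 CPM in KO steady-state and 373 and 391 CPM in WT steady-state libraries. The TRIM proteins with other gene names Pml, Mefv and Mid1 were tested as well and gave 0 calls. Pml, which organises nuclear bodies, had 179 and 85.4 CPM in KO LPS and 97.9 and 135 CPM in WT LPS libraries, against 115 and 73.2 CPM in KO steady-state and 85.7 and 77.2 CPM in WT steady-state libraries. Mefv, which encodes pyrin, had 61.7 and 23.9 CPM in KO LPS libraries, against 2.71 and 10 CPM in KO steady-state libraries. In WT cells, LPS libraries had 7.54 and 27.9 CPM, against 9.08 and 11.5 CPM in WT steady-state libraries.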

How the data were processed

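The 8 RNA libraries of mouse dendritic cells were made with an RNeasy-plus and a TruSeq RNA v2 kit, per the labels' protocols. The authors deposited raw read counts per gene for 23420 features, 1 column per library. The build mm10 and the tools Subread 1.4.3, featureCounts, TopHat2 2.0.8 and edgeR 3.6.8 are listed without roles, per the submitters' processing notes. The treatment of reads matching several genes is not stated in the labels. Groups and library numbers come from the sample titles.

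Tests used edgeR 4.0.16 in R 4.3.3: filterByExpr (minimum count 10, minimum total 15; 12442 genes kept), TMM factors, 1 coefficient per group over all 8 libraries, and the quasi-likelihood F test, two-sided, with Benjamini-Hochberg adjustment over all genes tested. Residual degrees of freedom were 4 and prior ones 3.4. The SE is the log2 fold change divided by the square root of F. The procedure was tested on simulated data. CPM values use TMM-scaled library sizes, and levels of different genes are divided by summed exon length (GENCODE M21, GRCm38, the assembly of mm10; all 65 symbols matched). Promoter sequences are from RefSeq GRCm38.p6. A pair of libraries of a group never agreed within sampling noise (chi-square statistic per gene 18.8 to 186).

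The members and lists were chosen with earlier results of these data known. A TRIM member's fold change is printed where it was called, was among the 3 highest or 3 lowest of a comparison, or was an antiviral member with an unadjusted p under 0.05; genes of the other lists where called or among the 2 most abundant. Any TRIM member may be given by its reads or CPM. The alternatives tried were DESeq2 1.42.0, upper-quartile or RLE factors, a stricter filter (1 CPM or more in 2 libraries) or none, a fit restricted to the groups compared, robust dispersion, the replicate block, and omission of each library in turn. A group left with 1 library is assumed to vary like the others.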

Additional observations from a re-analysis of the deposited data

How the results depend on the processing

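The count of TRIM genes called for LPS against steady state in KO cells, 4 in the analysis as reported, was 7 with no filter on low counts, 9 with DESeq2, 1 with the replicate block, and 0 to 10 when 1 library was left out. In WT cells, also 4, it was 7 with no filter, 8 with DESeq2, 2 with only the groups compared, 2 with the replicate block, and 0 to 14 when 1 library was left out. For KO against WT with LPS, 0 as reported, it was 2 with no filter (Trim29 and Trim43b), 3 with DESeq2 (these and Trim30b), and 0 to 2 when 1 library was left out. At steady state and in the interaction it was 0 under every alternative run. Counts under RLE or upper-quartile factors, the stricter filter and robust dispersion stayed within 1.5 times those reported. Of 604 gene values recomputed over 36 gene and comparison pairs, 519 kept their direction and side of the threshold, 43 lost a call, 37 gained one and 5 changed sign. The sign changes came from leaving out 1 library. For KO against WT with LPS, the log2 fold change of Trim34b then ran from -0.084 (without WT LPS library 1) to 4.79, and that of Trim56 from -0.57 (without KO LPS library 1) to 1.25. At steady state Trim34b ran from -0.011 to 7.02 and Trim43b from -0.081 to 3.90, both lowest without KO steady-state library 2. In the interaction Trim47 ran from -0.91 (without KO LPS library 1) to 1.47. Apart from leaving libraries out, which leaves fewer samples, the cause was not tested.

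Pairing of samples by library number is not established: the labels do not say that a number marks a shared mouse or culture, and only 2 numbers exist. Deviations of same-numbered LPS and steady-state libraries correlated at 0.113 in KO and 0.260 in WT cells, and across genotypes at -0.599 (KO LPS with WT LPS) to 0.166. The Trim12a and Trim34b read patterns followed library number within a genotype. With the replicate block, Trim25 passed in KO cells and Trim43b and Trim47 passed in WT cells, so no member passed in both. The edgeR adjusted p with the block was 0.0550 for Trim47, 0.0561 for Trim30a and 0.0585 for Trim43b in KO cells, and 0.0530 for Trim30a and 0.0541 for Trim25 in WT cells. With KO LPS libraries 1 and 2 exchanged in the block, an alternative chosen after seeing the data, the fit called 7 members in KO, 4 in WT and 1 for KO against WT with LPS. Most low members rest on a few reads a library, which limits what their fold changes can show.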
